A study of Mus musculus with 3 samples.

Results

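The genes described here are the cathepsins, proteases of the lysosome and related compartments, and the subunits and accessory proteins of the vacuolar proton pump, the enzyme that acidifies those compartments. They were chosen by symbol: every symbol made of Cts and further letters or digits, and every symbol that starts with Atp6v0, Atp6v1 or Atp6ap. This gave 48 of the 31053 genes in the count tables, of which 23 were cathepsin genes and 25 were pump genes. All 48 were found in the mouse annotation (GENCODE vM21, build GRCm38).

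The cells were CD45+ cells, which carry the surface protein shared by leukocytes, sorted from the stomach's muscle layer after digestion with collagenase type II. The digestion ran for 2 hours at 37 °C in all 3 libraries. The 3 libraries, replicates 1, 2 and 3, formed 1 group, named NonDiabetic, from female mice of the C57bl/6 strain, and no genetic change, treatment or age is given in the labels used here. The labels do not say whether the libraries came from separate animals, and each p-value below therefore reflects library-to-library spread alone, whose source may be technical. All comparisons are between cell types inside the same libraries.

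Cathepsins are made as inactive precursors that are cut to their active form in acidic compartments. The family mixes cysteine proteases (most members), aspartic proteases (Ctsd and Ctse) and serine proteases (Ctsa and Ctsg), and its members take part in protein breakdown, in trimming the invariant chain before peptides are loaded on MHC class II, and in activating the granule proteases of mast cells and killer lymphocytes. The pump has a V1 sector in the cytosol that splits ATP (subunits A to H) and a V0 sector in the membrane that carries protons (subunits a, c, d and e), and its accessory proteins Atp6ap1 and Atp6ap2 help it assemble. Many of these genes share promoter motifs read by the MiT/TFE transcription factors, of which TFEB is the best known.

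Promoter windows were available for 37 of the 48 members, credited to RefSeq (build GRCm38.p6), and each ran from 250 bases before to 50 bases after a transcription start. No window was available for Ctsb, Ctsh, Ctsw, Atp6v0a2, Atp6v1b2, Atp6v1c1, Atp6v1g1 or Atp6v1h, among others, so their promoters were not searched. The motif CACGTG, the core that MiT/TFE factors read and a palindrome that reads alike on both strands, was present in windows of 9 of the 37 genes (24.3%), against 8.09% of all 27025 genes with a window. Its longer form TCACGTGA, which contains CACGTG, was present in 5 of the 37 (13.5%), against 1.12% of all genes. The CLEAR consensus, a still longer form known from lysosomal genes, was present in 0 of the 37, against 0.37% of all genes. The 5 windows with TCACGTGA are shown because they hold members from both families whose levels are set side by side below. Each is printed 5′ to 3′ to 20 bases past the start, with TCACGTGA in capitals, and a match is only a match of letters.
Ctsa, chr2:164833523-164833792, plus strand: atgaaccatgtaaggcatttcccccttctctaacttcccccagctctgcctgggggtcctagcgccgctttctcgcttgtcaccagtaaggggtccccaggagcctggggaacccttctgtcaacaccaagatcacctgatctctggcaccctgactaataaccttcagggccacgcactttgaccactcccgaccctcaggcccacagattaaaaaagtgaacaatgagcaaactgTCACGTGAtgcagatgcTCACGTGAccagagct
Ctsd, chr7:142387808-142388077, minus strand: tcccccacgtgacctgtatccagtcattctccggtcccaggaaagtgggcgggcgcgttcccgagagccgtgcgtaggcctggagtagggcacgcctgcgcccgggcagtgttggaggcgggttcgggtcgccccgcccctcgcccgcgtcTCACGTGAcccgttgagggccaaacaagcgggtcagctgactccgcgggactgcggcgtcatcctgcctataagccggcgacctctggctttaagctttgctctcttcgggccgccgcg
Atp6v1a, chr16:44139240-44139509, minus strand: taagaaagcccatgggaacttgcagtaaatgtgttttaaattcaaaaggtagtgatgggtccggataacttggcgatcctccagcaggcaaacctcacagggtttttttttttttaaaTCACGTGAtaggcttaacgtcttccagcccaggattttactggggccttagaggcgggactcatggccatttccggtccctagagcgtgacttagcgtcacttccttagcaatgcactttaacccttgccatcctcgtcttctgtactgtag
Atp6v0d1, chr8:105566045-105566314, minus strand: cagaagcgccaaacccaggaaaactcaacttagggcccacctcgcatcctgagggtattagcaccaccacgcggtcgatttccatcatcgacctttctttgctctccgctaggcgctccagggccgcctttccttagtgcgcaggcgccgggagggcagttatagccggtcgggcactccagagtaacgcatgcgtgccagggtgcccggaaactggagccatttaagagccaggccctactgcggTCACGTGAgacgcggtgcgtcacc
Atp6v0e, chr17:26676146-26676415, plus strand: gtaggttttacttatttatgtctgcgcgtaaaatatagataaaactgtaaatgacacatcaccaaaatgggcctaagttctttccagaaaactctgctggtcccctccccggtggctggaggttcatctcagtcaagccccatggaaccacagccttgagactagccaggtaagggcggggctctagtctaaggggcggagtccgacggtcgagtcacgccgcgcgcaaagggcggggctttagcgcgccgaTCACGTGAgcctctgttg
In Ctsa the motif occurred at both sides of the start, with its first base 13 bases before and 4 bases after it. The first base lay 99 bases before the start in Ctsd, 132 before in Atp6v1a, 4 before in Atp6v0d1 and 2 after in Atp6v0e.

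The 3 tables held 6777422 to 13336484 UMIs (unique molecular identifiers, 1 per captured RNA molecule). Cells with at least 1000 UMIs and at most 15% mitochondrial UMIs numbered 522, 1692 and 1216 in replicates 1, 2 and 3, with medians of 9182.5, 5699.5 and 7501.5 UMIs. The loss was uneven between libraries. Of 881, 2839 and 2015 barcodes, 28, 777 and 335 had under 1000 UMIs. A further 331, 370 and 464 had more than 15% mitochondrial UMIs. Replicates 2 and 3 shared 33 barcodes, replicates 1 and 3 shared 1, and leaving out shared barcodes ended only the call of Ctso named below among the calls reported here. Cells were assigned to classes by marker genes that are not members, which placed 493, 1517 and 1100 cells. Macrophages were the largest class, with 216, 1076 and 756 cells. Levels are given as CPM, the UMIs of a gene divided by all UMIs of the class in that library and scaled to 1000000. These libraries count 3′ ends, so a CPM compares molecules and does not depend on transcript length.

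All 10 macrophage markers had UMIs in gated macrophages, at 13351 to 19750 CPM in sum. Ptprc, which encodes CD45, stood at 137 CPM (mast cells of replicate 3) or more in each lymphoid and myeloid class described, whereas gated fibroblasts had 29.4, 0 and 9.01 CPM, at or near 0 for the transcript of the sorted protein. Gated smooth muscle cells carried macrophage markers too, at 17186 CPM in replicate 3, and are not described.

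Of the 48 members, 28 reached a mean of 50 CPM in some class or were called in some comparison, and these are the ones described gene by gene. No UMI was found in kept cells for 12 members: the chromosome 13 genes Ctsj, Ctsm, Ctsq, Ctsr, Cts3, Cts6, Cts7 and Ctsll3, several of which are known from the mouse placenta, and Atp6v1b1, Atp6v1c2, Atp6v1e2 and Atp6ap1l. Cts8 had 1 UMI and Atp6v1g3 had 2. The remaining 6 undescribed members had 27 to 200 UMIs over all kept cells: Atp6v0a4 (27), Atp6v0e2 (47), Ctse (71), Atp6v0d2 (119), Atp6v1g2 (130) and Atp6v0c (200). Atp6v0c, which encodes the proton-carrying c subunit, has processed pseudogenes in the annotation, so its low count is uncertain.

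Summed over the family, cathepsin UMIs were most abundant in macrophages and least abundant in ILC2 and T cells. Macrophages had 8407, 7570 and 8324 CPM of cathepsins in replicates 1, 2 and 3, while ILC2 (group 2 innate lymphoid cells) had 658, 607 and 471 CPM. Within a library, the macrophage sum was 12.5 to 17.7 times the ILC2 sum. Between them stood monocytes with 4445 ± 232 CPM, cDC2 (type 2 conventional dendritic cells) with 2825 ± 128 CPM, mast cells with 1447 ± 217 CPM, cDC1 (type 1 conventional dendritic cells) with 1358 ± 187 CPM and T cells with 727 ± 185 CPM (SD, n = 3 libraries each). Macrophages, monocytes and cDC2 did not overlap each other in any library, whereas mast cells, cDC1 and NK cells (natural killer cells, 1562 and 1227 CPM in replicates 2 and 3) overlapped.

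The pump genes were likewise most abundant in macrophages and least abundant in ILC2 and T cells, over a narrower range and with another order of the classes between. Their sum was 2462, 2767 and 2342 CPM in macrophages and 878, 794 and 868 CPM in ILC2, so the macrophage sum was 2.70 to 3.48 times the ILC2 sum. Monocytes had 2169 ± 188 CPM, mast cells 2083 ± 290 CPM, cDC2 1828 ± 152 CPM and cDC1 1573 ± 141 CPM (SD, n = 3 libraries each). Over libraries, the mast cell range overlapped the macrophage range, and the highest monocyte library, at 2298 CPM, lay just below the lowest macrophage library. Within a library, both classes were below macrophages. The mast cell sum was 0.797 to 0.872 times the macrophage sum, and the macrophage sum was 1.09 to 1.20 times the monocyte sum. The 2 families thus differed in how much they varied: cathepsin UMIs outnumbered pump UMIs 2.74 to 3.55 times in macrophages, while in ILC2, T cells, mast cells and cDC1 the pump UMIs were the more numerous in every library. Atp6v0c, whose low count is uncertain, gave 0.314% of macrophage pump UMIs on average, so the ratios of the families carry that limit.

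**Figure D1:**
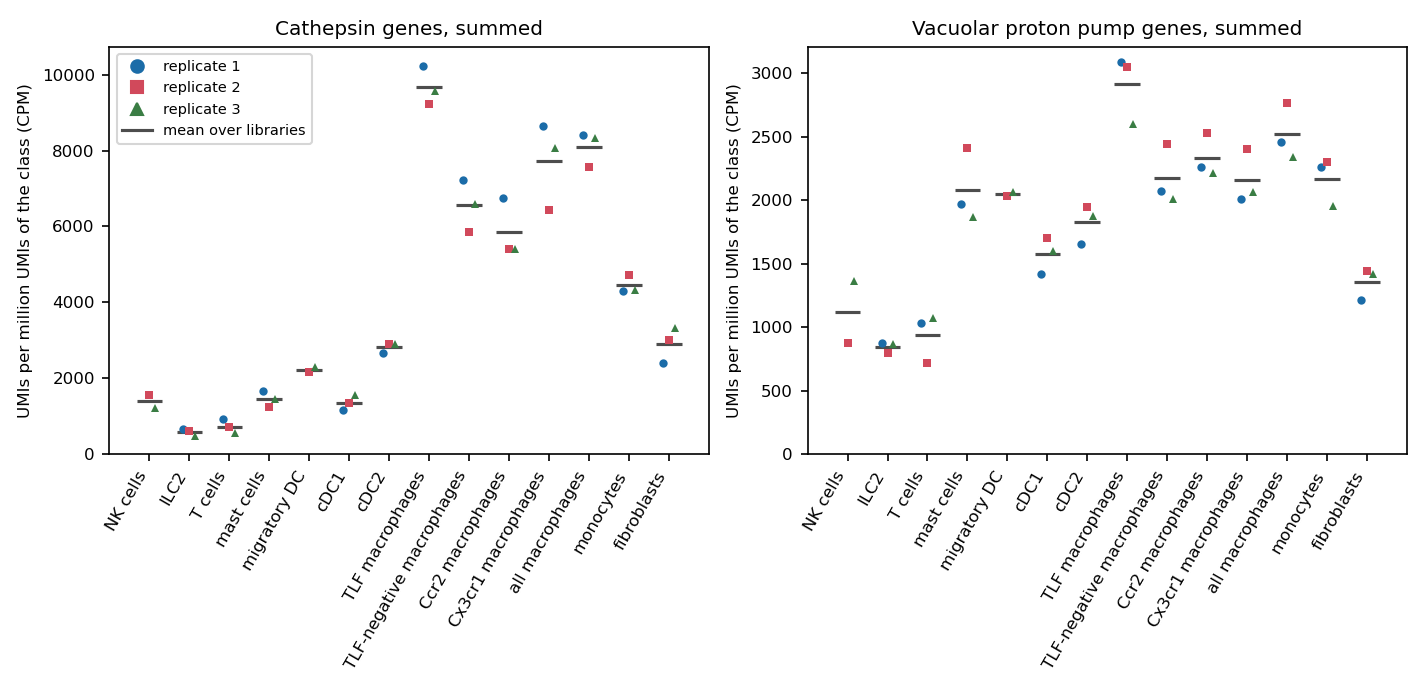
Summed UMIs of the cathepsin genes (left) and the vacuolar proton pump genes (right), in CPM, for each gated class; points are libraries with at least 5 cells of the class and lines are means. Cathepsin sums reached 9215 to 10241 CPM in TLF macrophages and 471 to 658 CPM in ILC2, while pump sums ran from 720 CPM in T cells of replicate 2 to 3088 CPM in TLF macrophages of replicate 1.

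Low values in lymphoid cells need the level of stray macrophage RNA beside them. The macrophage markers stood in ILC2 at 0.799%, 2.54% and 0.807% of their level in macrophages of the same library. Ctss stood there at 1.99%, 3.07% and 1.13% of its macrophage level and Ctsb at 4.5%, 5.92% and 2.84%. Ctsd stood far above the marker percentage, at 46.3%, 26.6% and 26.8%, as did Atp6v0e, the e subunit of the V0 sector, at 60.7%, 54.1% and 62.8%. What share of the low Ctss and Ctsb counts in lymphoid cells came from free RNA was not tested.

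Which cathepsin made up the sum differed between classes. Ctsb, a cysteine protease of general protein breakdown (chr14:63122462-63145923, plus strand, GRCm38), gave 39.9% ± 2.02 of macrophage cathepsin UMIs (SD, n = 3 libraries), ahead of Ctss at 17.3% ± 1.65 and Ctsc at 15.3% ± 1.31. Ctss, the cysteine protease that trims the invariant chain (chr3:95526786-95556403, plus strand), led in monocytes with 33.0% ± 2.11 and in cDC2 with 37.6% ± 3.11. Ctsd, the main aspartic protease of the lysosome, led in mast cells with 42.1% ± 10.8 and on the mean in ILC2 with 30.2% ± 4.81, although Ctsb was ahead in ILC2 of replicate 2, at 30.4% against 24.7%. Ctsl, a cysteine endoprotease, led in fibroblasts with 38.6% ± 6.17. Among pump genes, Atp6v0b (the c″ subunit of V0) gave 13.4% ± 2.28 of macrophage pump UMIs. Atp6v0e gave 18.3% ± 2.28 in cDC2 and 22.2% ± 9.34 in mast cells, where replicate 2 had 32.8%, and Atp6v1f, a V1 subunit, gave 21.3% and 23.3% in NK cells of replicates 2 and 3.

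**Figure D2:**
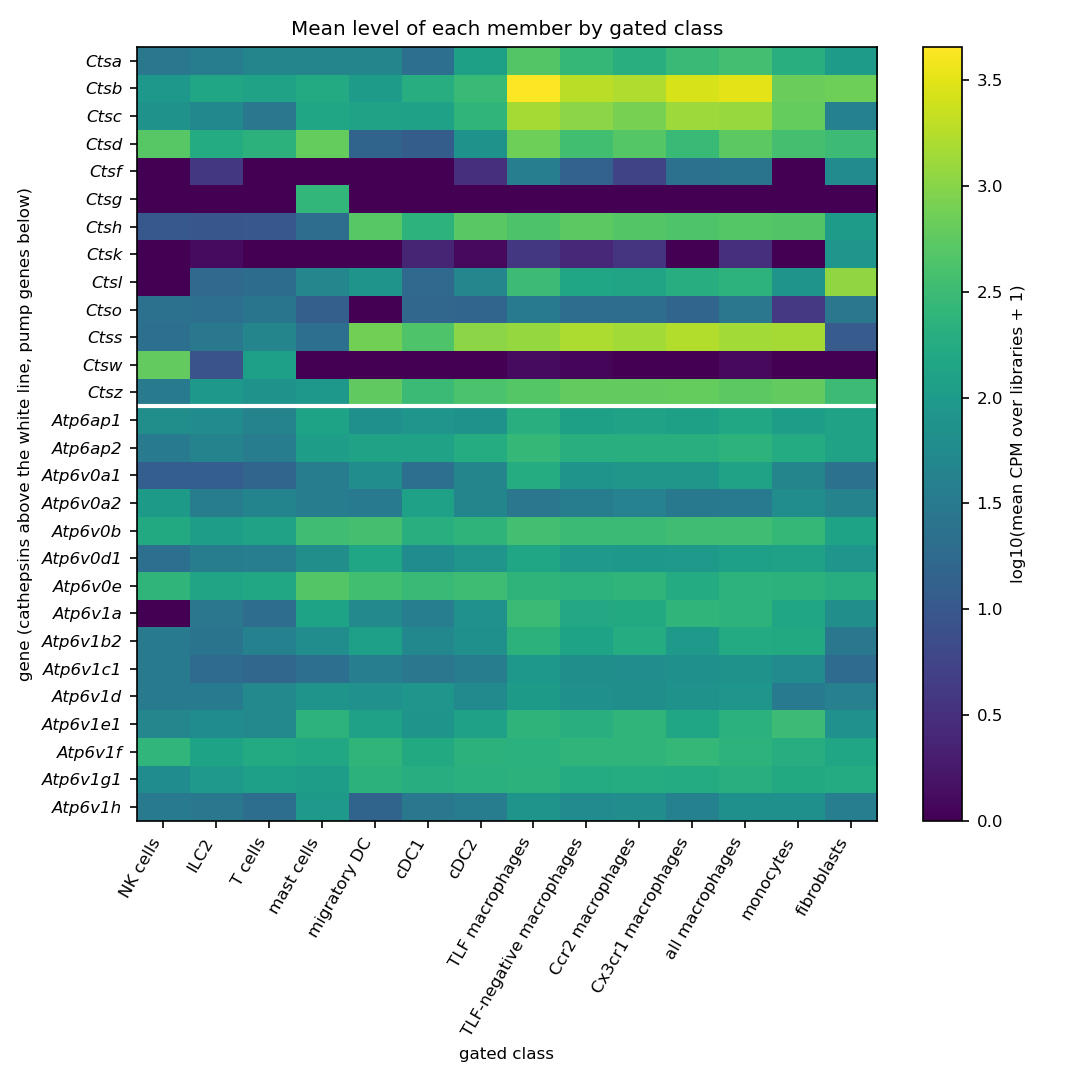
Mean level over libraries of each of the 28 members described gene by gene (rows; cathepsins above the white line) in each gated class (columns), as log10 of CPM plus 1. Ctsg, Ctsk and Ctsw stand near 0 in most classes, whereas many pump genes keep similar colours across classes. Atp6v1a is an exception, at 0% of its macrophage level in NK cells of replicates 2 and 3. In ILC2 of replicates 1, 2 and 3 it stood at 15.8%, 9.21% and 10.3%.

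Gene by gene, 8 comparisons between classes were tested with edgeR's quasi-likelihood test on UMIs summed per library and class, with a term for the library, p-values were adjusted by the Benjamini-Hochberg method over the whole gene table, and a gene is called at an adjusted p under 0.05. Several comparisons use the same macrophages or the same cDC2, so their results are not independent of each other.

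Macrophages were first split by TLF, which stands for Timd4, Lyve1 and Folr2, surface receptors of long-lived resident macrophages. TLF macrophages carried at least 2 UMIs of these genes, and TLF-negative macrophages carried none. These were 92, 469 and 402 TLF cells and 108, 420 and 291 TLF-negative cells in replicates 1, 2 and 3. Median UMIs were 6508.5, 7413 and 8123.5 in TLF macrophages and 9437.5, 4139.5 and 7908 in TLF-negative macrophages. A gate on UMIs depends on cell depth, whose part in this split was not tested. TLF macrophages had more UMIs of Ctsb, Ctsd, Ctsl and several other cathepsins and of 4 pump genes, and fewer of Ctss, Ctsh and Ctsz. The cathepsin sum was 10241, 9215 and 9578 CPM in TLF macrophages and 7226, 5856 and 6585 CPM in TLF-negative macrophages of replicates 1, 2 and 3. The pump sum was 3088, 3051 and 2598 CPM in TLF macrophages, against 2071, 2445 and 2010 CPM in TLF-negative macrophages. The TLF sums were higher in each of the 3 libraries, 1.42 to 1.57 times for cathepsins and 1.25 to 1.49 times for the pump.

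Of 28 members that passed the filter on low counts, 11 were called higher and 3 lower, where 9.69% of all 9795 genes tested were called higher and 10.6% lower. All 10 cathepsins that passed were called, 7 higher and 3 lower, with a median log2 fold change of 0.69. Of 18 pump genes, 4 were called higher and 0 lower, with a median of 0.30, and 2 were lower at an unadjusted p under 0.05. The median over all genes was -0.0016 on the same log2 scale. DESeq2 called 9 members higher and 2 lower, Ctss and Ctsh.

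Ctsb had 4945, 4458 and 4236 CPM in TLF macrophages, against 2397, 1694 and 1703 CPM in TLF-negative macrophages (log2 fold change 1.10, SE 0.096, adjusted p 0.00031 by edgeR). The groups did not overlap, and the lowest TLF library was well above the highest TLF-negative one. Ctsl had 393, 274 and 297 CPM against 180, 131 and 130 CPM (log2 fold change 0.97, SE 0.11, adjusted p 0.00083). Ctsd had 631, 713 and 765 CPM in TLF macrophages and 349, 376 and 344 CPM in TLF-negative ones (log2 fold change 0.82, SE 0.11, adjusted p 0.0016). Ctsa, the carboxypeptidase that also protects lysosomal glycosidases, had 467, 459 and 482 CPM against 334, 218 and 263 CPM (0.66 on the log2 scale). Ctsf, a cysteine protease of low abundance, had the largest log2 fold change of a cathepsin here at 1.34 (SE 0.22), with 23.0, 42.6 and 40.6 CPM in TLF macrophages and 12.2, 11.3 and 16.2 CPM in TLF-negative ones. Ctso was called higher at 0.71 and Ctsc, the dipeptidase that activates granule proteases, at 0.33 on the log2 scale.

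The 3 cathepsins called lower were Ctss, Ctsz and Ctsh. Ctss had 1229, 1028 and 1297 CPM in TLF macrophages, against 1583, 1419 and 1887 CPM in TLF-negative macrophages (log2 fold change -0.61, SE 0.099, adjusted p 0.0042 by edgeR). Ctsz, a carboxypeptidase, had 540, 517 and 411 CPM against 630, 591 and 556 CPM (log2 fold change -0.44), and the groups did not overlap. Ctsh, an aminopeptidase, had 350, 443 and 495 CPM in TLF macrophages and 441, 505 and 679 CPM in TLF-negative ones (log2 fold change -0.48), lower in each library although the ranges overlapped.

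Among pump genes, the highest log2 fold change was that of Atp6v0a1, an a subunit that helps direct the pump to its membrane (chr11:101009452-101063719, plus strand). Atp6v0a1 had 219, 168 and 154 CPM in TLF macrophages, against 116, 68.5 and 44.4 CPM in TLF-negative macrophages (log2 fold change 1.19, SE 0.16, adjusted p 0.0018 by edgeR). Atp6v1a, the catalytic A subunit, had 295, 381 and 244 CPM against 183, 171 and 119 CPM (log2 fold change 0.82, SE 0.12, adjusted p 0.0032). The groups did not overlap for either gene. Atp6ap1 was called higher at 0.60 and Atp6v1b2, the B subunit found in most tissues, at 0.56 on the log2 scale. Of the 5 members with TCACGTGA in their window, Ctsa, Ctsd and Atp6v1a were called higher, while Atp6v0d1 (0.40) and Atp6v0e (-0.12) were not called.

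**Figure D3:**
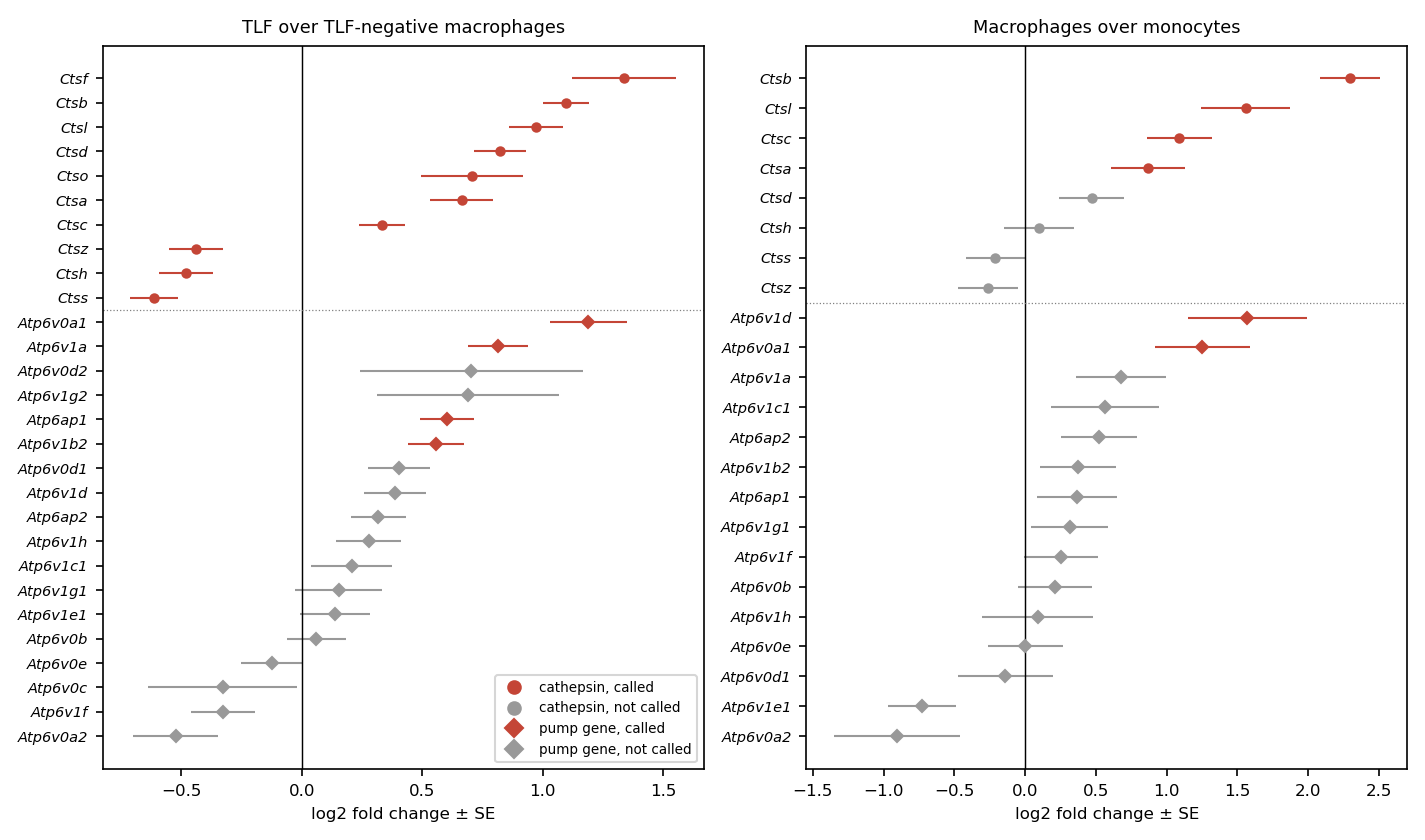
Log2 fold change ± SE of each tested member in TLF over TLF-negative macrophages (left, 3 libraries) and in macrophages over monocytes (right, 2 libraries); circles are cathepsins, diamonds are pump genes, red marks an adjusted p under 0.05, and genes with at most 3 UMIs in a class are left out. On the left, Ctsb stands at 1.10 and Ctss at -0.61; on the right, Ctsb stands at 2.30 and Ctss, Ctsz and Ctsh lie close to 0.

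Other genes of the lysosome from lists set beside the members moved in both directions. Of 30 lysosomal hydrolases and cofactors tested, 12 were called higher and 3 lower (median 0.32), among them Gm2a, the cofactor of ganglioside breakdown, at -1.45, and Grn, the progranulin gene, at 1.28. Of 15 processing and pump partners tested, 6 were called higher and 1 lower (median 0.42), among them the endosomal proton exchanger Slc9a9 at 1.49. Of 5 cathepsin inhibitors tested, 1 was called higher, Serpinb6a, at 1.97. Of 16 genes of lysosomal membrane and sorting, 4 were called higher and 1 lower (median 0.05), and of 4 MiT/TFE factors 1 was called higher, Tfec, at 1.77. All 4 antigen-loading partners tested were called lower (median -1.90), among them the MHC class II activator Ciita at -2.12.

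Macrophage markers were also higher in TLF macrophages, at 16510 to 22785 CPM against 11322 to 15627 CPM in TLF-negative macrophages, and monocyte markers were lower, at 62.6 to 432 CPM against 330 to 1032 CPM, with all 10 and all 8 markers detected in both. Markers of cDC2 summed to 1312 to 1529 CPM in TLF macrophages and 794 to 1128 CPM in TLF-negative macrophages, with all 6 detected in both and no overlap. Fibroblast markers, again 6 of 6, were higher in each library, at 66.2, 44.3 and 29.5 CPM against 45.9, 31.2 and 22.0 CPM, and the 7 migratory dendritic cell markers were lower in each, at 103, 87.1 and 80.9 CPM against 145, 140 and 85.0 CPM. The part of these lists in the result was not tested. The number of calls depended on single libraries and settings: without replicate 2 there were 3 higher and 0 lower, without replicate 3 there were 6 and 0, without the library block 3 and 0, and with every cell thinned to 1000 UMIs 5 and 1. Only Ctsb, of the 14 called members, was called under every alternative run. Scaling by library size alone moved the median of all genes to 0.16 and their split to 1480 higher and 716 lower, against 949 and 1041 in the reported fit, and among members it called 15 higher and 1, Ctss, lower.

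Within TLF-negative macrophages, cells with Ccr2, a receptor of recruited monocytes, and no Cx3cr1 were set against cells with Cx3cr1, the fractalkine receptor, and no Ccr2. These were 27, 107 and 56 Ccr2 cells and 11, 37 and 62 Cx3cr1 cells in replicates 1, 2 and 3. Cells with both genes (58, 95 and 126) and cells with neither were left out. Median UMIs were 9046, 9599 and 8690 in Ccr2 macrophages and 8015, 7557 and 6990 in Cx3cr1 macrophages. Cells with both had medians of 11388, 12186 and 9251 UMIs and cathepsin sums of 6838, 5869 and 6469 CPM. The part of cell depth in the split was not tested. The cathepsin sum was 6742, 5405 and 5396 CPM in Ccr2 macrophages and 8639, 6437 and 8072 CPM in Cx3cr1 macrophages, so it was lower in each library, while the pump sum was 1.05 to 1.12 times as high. Of 23 members tested, 1 was called lower and 0 higher, where 4.29% of all 4822 genes were called lower and 3.21% higher. At an unadjusted p under 0.05 there were 4 lower and 3 higher, and DESeq2 called 0 in either direction.

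The called member was Ctsb, with 2318, 1382 and 1305 CPM in Ccr2 macrophages against 3342, 2405 and 2430 CPM in Cx3cr1 macrophages (log2 fold change -0.76, SE 0.17, adjusted p 0.011 by edgeR). The groups did not overlap. Ctsd ran the other way without being called, with 536, 495 and 455 CPM in Ccr2 macrophages and 285, 283 and 317 CPM in Cx3cr1 macrophages (log2 fold change 0.71, adjusted p 0.074). Atp6v1e1, the E subunit of V1, had 197, 310 and 235 CPM against 143, 124 and 173 CPM (log2 fold change 0.74, adjusted p 0.10). The adjusted p of Ctsb ranged from 0.0032 to 0.35 over the alternatives, with 0.074 without replicate 2 and 0.18 without replicate 3, and without replicate 1, whose Cx3cr1 class had 11 cells, 2 members were called lower. Monocyte markers summed to 906 to 2142 CPM in Ccr2 macrophages (8 of 8 detected) and to 16.4 to 363 CPM in Cx3cr1 macrophages (5 of 8 detected), while macrophage markers summed to 8288 to 9543 CPM against 13794 to 20283 CPM (10 of 10 detected in both). The part of either list in the result was not tested.

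Macrophages were compared with monocytes, the blood cells that can give rise to them, in replicates 1 and 2, since replicate 3 had 9 monocytes and a class entered a test with at least 10 cells. Macrophages had more Ctsb, Ctsl, Ctsc and Ctsa, while Ctss, Ctsz and Ctsh were not called. The cathepsin sum was 8407 and 7570 CPM in macrophages and 4292 and 4712 CPM in monocytes, and the pump sum was 2462 and 2767 CPM against 2258 and 2298 CPM. Of 25 members tested, 8 were called higher and 0 lower, where 5.24% of all 8018 genes were called higher and 3.59% lower. Among cathepsins 6 of 10 were called (median 0.98), and among pump genes 2 of 15 (median 0.32), beside a median of 0.08 over all genes. On the lower side, 1 member had an unadjusted p under 0.05, and DESeq2 called 0.

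Ctsb had 3436 and 3119 CPM in macrophages, against 768 and 568 CPM in monocytes (log2 fold change 2.30, SE 0.21, adjusted p 4.6e-07 by edgeR). Ctsl had 259 and 206 CPM in macrophages and 115 and 48.6 CPM in monocytes (log2 fold change 1.56, SE 0.31, adjusted p 0.0028). Ctsc was higher by 1.09 and Ctsa by 0.87 on the log2 scale. Each of these members was higher in both libraries, with no overlap. Ctsf and Ctso had 231 and 216 UMIs in macrophages and 0 UMIs in monocytes of these libraries, which makes them at least 3.19-fold and 2.98-fold higher against a floor of 3 counts over the class. In the 9 monocytes of replicate 3, which were not tested, Ctso gave 0.214% of cathepsin UMIs and Ctsf gave 0%. Of the pump genes, Atp6v1d, the D subunit of the central stalk, had 62.3 and 109 CPM against 22.9 and 34.0 CPM (log2 fold change 1.57, SE 0.42), and Atp6v0a1 had 159 and 121 CPM against 68.8 and 48.6 CPM (log2 fold change 1.25, SE 0.34).

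Among the cathepsins that were not called, Ctss had 1423 and 1197 CPM in macrophages and 1341 and 1666 CPM in monocytes (log2 fold change -0.21, SE 0.21). Of the calls, only that of Ctsb was kept in every alternative run. DESeq2 called 2 members, the fit without the library block 1, cells of at least 2000 UMIs 3, thinned cells 2, and fits without replicate 1 or replicate 2 called 4 and 2. The monocytes carried all 10 macrophage markers at 815 to 1696 CPM in sum.

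Type 2 conventional dendritic cells, which present antigen to helper T cells, had lower levels of 6 cathepsins and 7 pump genes than macrophages and higher levels of Atp6v0a2 and Atp6v0e, while Ctss, Ctsh and Ctsz were not called. The cathepsin sum was 2678, 2893 and 2905 CPM in cDC2, or 0.318 to 0.382 times that of macrophages in the same library, and the pump sum was 1657, 1948 and 1877 CPM, or 0.673 to 0.801 times. Of 26 members tested, 2 were called higher and 13 lower, where 18.4% of all 8888 genes were called higher and 19% lower. Among cathepsins 6 of 10 were lower (median log2 fold change -1.77), and among pump genes 7 of 16 were lower and 2 higher (median -0.38), beside a median of -0.02 over all genes. Scaling by library size alone moved that median to -0.23 and the split of all genes to 1074 higher and 2275 lower, against 1634 and 1689, and called 1 member higher and 19 lower.

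Ctsb had 338, 287 and 289 CPM in cDC2, against 3436, 3119 and 3126 CPM in macrophages (log2 fold change -3.20, SE 0.14, adjusted p 4.5e-07 by edgeR). Ctsd had 64.9, 76.1 and 74.8 CPM in cDC2 and 471, 563 and 578 CPM in macrophages (log2 fold change -2.69, SE 0.15, adjusted p 1.6e-06). Ctsc and Ctsl were lower by more than their replicate spread, with log2 fold changes of -2.13 and -2.07, and Ctsf, with 9 UMIs in all cDC2, had -3.23. These were differences of level between the 2 cell types in every library, with no overlap.

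Among the other abundant cathepsins, Ctss had 914, 1119 and 1164 CPM in cDC2 and 1423, 1197 and 1587 CPM in macrophages (log2 fold change -0.19, SE 0.16, adjusted p 0.38). Ctsh had 418, 550 and 626 CPM against 410, 474 and 582 CPM (log2 fold change 0.32, SE 0.14, adjusted p 0.10), and Ctsz had 422, 460 and 381 CPM against 583, 558 and 484 CPM (log2 fold change -0.16, adjusted p 0.41). Ctss and Ctsz were lower in each library without overlap, and Ctsh was higher in each. Scaled by library size alone, Ctss (log2 fold change -0.40, adjusted p 0.033) and Ctsz (-0.37, adjusted p 0.037) were called lower, so whether they differ depends on the scaling.

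Pump genes split by subunit. Atp6v1a had 82.7, 75.5 and 54.5 CPM in cDC2, against 227, 285 and 185 CPM in macrophages (log2 fold change -1.51, SE 0.15, adjusted p 4.4e-05 by edgeR). Atp6v0a1 had 40.2, 60.8 and 35.0 CPM against 159, 121 and 105 CPM (log2 fold change -1.28, SE 0.21), and Atp6v1b2 had a log2 fold change of -1.17. The isoform of the a subunit in Golgi and endosomal pumps, Atp6v0a2 (chr5:124628576-124724455, plus strand), went the other way, with 75.0, 28.7 and 36.6 CPM in cDC2 and 39.8, 22.3 and 29.9 CPM in macrophages (log2 fold change 0.73, SE 0.18, adjusted p 0.011). Atp6v0e had 267, 356 and 388 CPM in cDC2 and 216, 241 and 241 CPM in macrophages (log2 fold change 0.73, SE 0.16, adjusted p 0.0050). Of the members with TCACGTGA, Ctsa (-1.47), Ctsd and Atp6v1a were lower, Atp6v0e was higher and Atp6v0d1 (-0.34) was not called.

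Other lysosomal genes were mostly lower in cDC2: 19 of 30 hydrolases and cofactors were called lower and 2 higher (median -1.04), 8 of 15 processing and pump partners lower and 0 higher, 8 of 15 genes of membrane and sorting lower and 0 higher, and 3 of 4 MiT/TFE factors lower. Lgmn, the protease that cuts cathepsins to their mature form, had 96.1 CPM in cDC2 and 1067 CPM in macrophages on average (log2 fold change -3.24). All 4 antigen-loading partners were called higher, among them Cd74, the invariant chain itself, at 1.46. Of 5 cathepsin inhibitors 2 were higher and 2 lower. Macrophage markers summed to 583 to 802 CPM in cDC2, and 11 of the 15 member calls were kept in every alternative run. The 4 others were Atp6v0a2, Atp6v0e, Atp6v1h and Atp6v1e1, and Atp6v0a2 had an adjusted p of 0.064 under library-size scaling and 0.054 without replicate 1, within a range of 0.0040 to 0.075 over its alternatives.

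**Figure D4:**
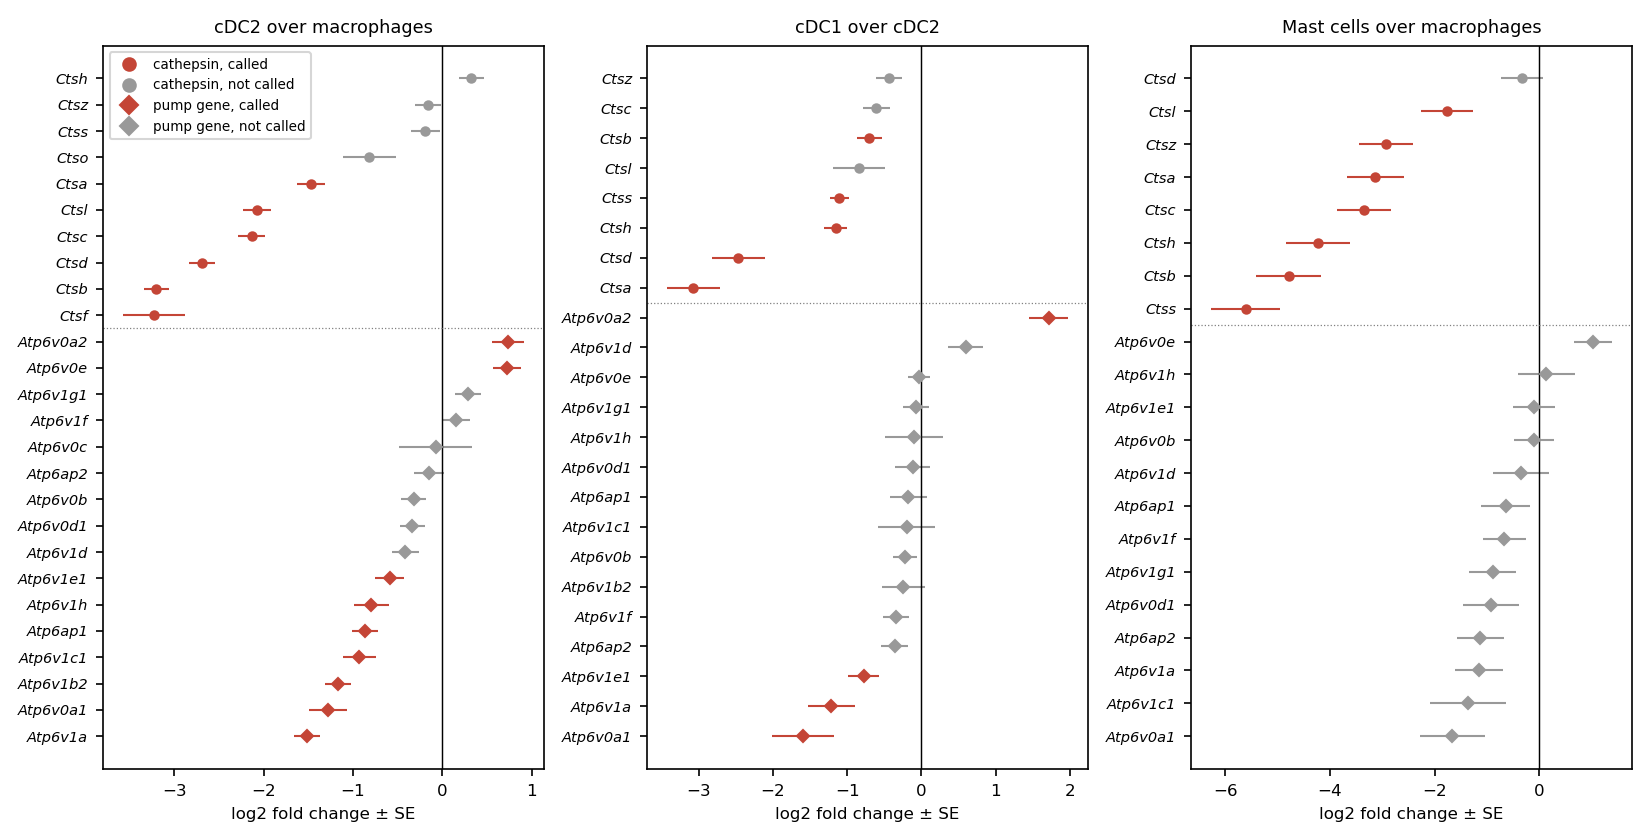
Log2 fold change ± SE of each tested member in cDC2 over macrophages (left, 3 libraries), cDC1 over cDC2 (middle, 2 libraries) and mast cells over macrophages (right, 2 libraries); circles are cathepsins, diamonds are pump genes, red marks an adjusted p under 0.05, and genes with at most 3 UMIs in a class are left out. Ctsb stands at -3.20, -0.70 and -4.79 from left to right, and most pump genes lie closer to 0 than most cathepsins.

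Type 1 conventional dendritic cells, which take up dead cells and present their antigens to killer T cells, had lower cathepsin levels still. In replicates 2 and 3, the libraries with at least 10 cDC1, the cathepsin sum was 1356 and 1546 CPM in cDC1 and 2893 and 2905 CPM in cDC2, and the pump sum was 1699 and 1598 CPM against 1948 and 1877 CPM. Of 23 members tested, 1 was called higher and 8 lower, where 5.78% of all 6502 genes were called higher and 6.86% lower. Among cathepsins 5 of 8 were lower (median -0.97), and among pump genes 3 of 15 were lower and 1 higher (median -0.20), beside a median of -0.0017 over all genes.

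Ctsa had 10.3 and 14.4 CPM in cDC1, against 116 and 92.7 CPM in cDC2 (log2 fold change -3.07, SE 0.35, adjusted p 0.0011 by edgeR). Ctsd had 14.4 and 11.5 CPM in cDC1 and 76.1 and 74.8 CPM in cDC2 (log2 fold change -2.47, SE 0.36, adjusted p 0.0032). Ctss and Ctsh were lower as well. Ctss had 480 and 553 CPM against 1119 and 1164 CPM (log2 fold change -1.10, SE 0.12), and Ctsh had 220 and 297 CPM against 550 and 626 CPM (log2 fold change -1.16, SE 0.15). Ctsb was lower at -0.70, while Ctsz (-0.43) and Ctsc (-0.60) were not called. The libraries did not overlap for any of these members. The call of Ctsb depended on the setting. It was lost under DESeq2 (adjusted p 0.557), and in edgeR fits without the library block (0.0994) and jointly over all classes (0.168). It was also lost in edgeR fits with a stricter gate (0.139), with scored doublets removed (0.0617) and with thinned cells (0.182).

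The a subunits were called in opposite directions, that of Atp6v0a1 not in every setting. Atp6v0a2 had 80.0 and 132 CPM in cDC1, against 28.7 and 36.6 CPM in cDC2 (log2 fold change 1.72, SE 0.26, adjusted p 0.0039 by edgeR), and the 7 cDC1 of replicate 1 had 150 CPM. Atp6v0a1 had 14.4 and 17.3 CPM in cDC1 and 60.8 and 35.0 CPM in cDC2 (log2 fold change -1.59, SE 0.41, adjusted p 0.040). The call of Atp6v0a1 was lost under DESeq2 (adjusted p 0.637), without the library block (0.081), after scrublet removal (0.0729) and without replicate 3 (0.142), and without replicate 2 its log2 fold change was -0.87 (adjusted p 0.764), the highest over the alternatives, whose lowest was 0.0014. With 121 ± 36.5 CPM over 3 libraries (SD), cDC1 had the highest mean level of Atp6v0a2 of the classes plotted, although NK cells of replicate 3 had 136 CPM from 6 UMIs. Of 21 hydrolases and cofactors tested, 6 were called higher and 1 lower. Ppt1, the palmitoyl-protein thioesterase, had a log2 fold change of 3.64, and Cst3, the cystatin that inhibits cysteine cathepsins, one of 1.76, with 27792 CPM in cDC1 and 8504 CPM in cDC2 on average.

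The calls of Ctsa and Ctsd were kept in every alternative that tested them, and neither passed the filter after thinning. DESeq2 called 0 higher and 4 lower (adjusted p of Atp6v0a2 0.055), removal of scored doublets left 4 lower, the fit without the library block 4, and thinned cells 0 higher and 2 lower. Fits without replicate 2 and without replicate 3, which leave 1 cDC1 library and assume that it varies like the other classes, called 2 and 4 lower, and Atp6v0a2 had an adjusted p of 0.095 without replicate 3. Macrophage markers summed to 78.0 to 105 CPM in cDC1 (9 of 10 detected, Fcgr1 at 0) and to 583 to 802 CPM in cDC2, and their part in the lower cathepsin levels was not tested.

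Migratory dendritic cells, which carry Ccr7 and leave tissue for the lymph node, were few: 2, 13 and 8 cells. After the data were seen, they were compared with cDC2 in replicates 2 and 3 with a minimum of 5 cells. The cathepsin sum was 2162 and 2294 CPM in migratory cells and 2893 and 2905 CPM in cDC2, and the pump sum was 2033 and 2061 CPM against 1948 and 1877 CPM. Of 23 members tested, edgeR called 0 in either direction, where 0.945% of all 6034 genes were called higher and 0.249% lower. Ctsb, Ctsa and Ctsd were lower at an unadjusted p under 0.05, and DESeq2 called 0. Ctsb had 111 and 93.0 CPM in migratory cells and 287 and 289 CPM in cDC2 (log2 fold change -1.55, SE 0.42, adjusted p 0.15), and Atp6v1b2 had 120 and 109 CPM against 59.4 and 48.8 CPM (log2 fold change 1.00, adjusted p 0.43). The libraries did not overlap for either gene, but neither passed the adjusted threshold.

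Natural killer cells numbered 2, 9 and 5 and were set against ILC2 in replicates 2 and 3 in the same way. Of 19 members tested, 2 were called higher and 0 lower, where 2.32% of all 5128 genes were called higher and 4.04% lower. On the lower side, 1 member had an unadjusted p under 0.05, and DESeq2 called 0. Library-size scaling turned the split of all genes to 263 higher and 180 lower, against 119 and 207, and called the same number of members. Ctsw, a cathepsin known from NK cells and cytotoxic T cells (chr19:5465043-5468507, minus strand), had 576 and 636 CPM in NK cells, against 2.63 and 6.73 CPM in ILC2 (log2 fold change 6.67, SE 0.49, adjusted p 2.2e-06 by edgeR). It gave 36.9% and 51.9% of the cathepsin UMIs of NK cells in replicates 2 and 3. The 2 NK cells of replicate 1 had 17 Ctsw UMIs, or 1009 CPM. T cells had 185, 135 and 20.7 CPM of Ctsw, between NK cells and ILC2, and 0 UMIs were found in mast cells, monocytes, cDC1, cDC2 and fibroblasts. NK markers summed to 274, 375 and 51.9 CPM in T cells of replicates 1, 2 and 3, and ILC2 markers to 2116, 2062 and 2106 CPM. The part of either list in the Ctsw level of T cells was not tested.

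Ctsd was the other called member, with 669 and 364 CPM in NK cells and 150 and 155 CPM in ILC2 (log2 fold change 1.39, SE 0.34, adjusted p 0.028 by edgeR). The NK and macrophage levels of Ctsd overlapped, while Ctss had 1 UMI in each of the 2 NK libraries and Ctsl had 0. Ctsw was called under every alternative run, whereas Ctsd lost its call under DESeq2, the joint fit of all classes and thinning, and without replicate 2 (adjusted p 0.89) or replicate 3 (adjusted p 0.12). T-cell markers summed to 837 and 1046 CPM in NK cells (4 of 7 detected, with Cd3e, Cd3g and Trac at 0) and to 650 to 872 CPM in ILC2.

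**Figure D5:**
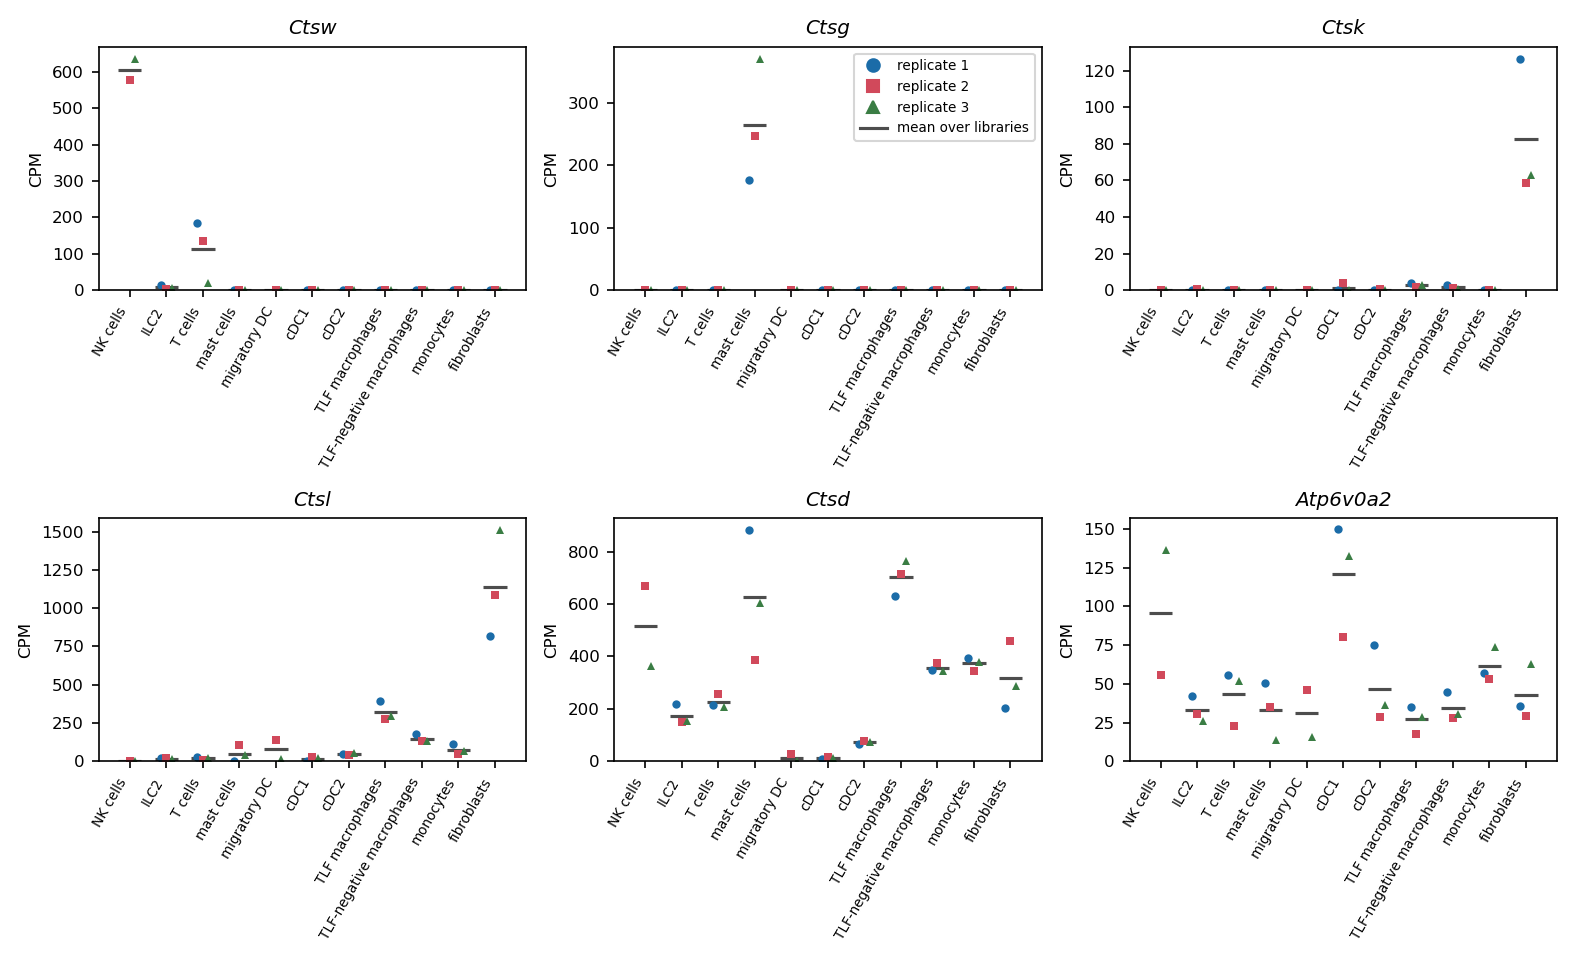
CPM of 6 members in each gated class, with a point for each library with at least 5 cells and a line at the mean. Ctsw was high in NK cells and lower in T cells, Ctsg was found in mast cells, Ctsk and Ctsl were highest in fibroblasts, Ctsd was low in dendritic cells, and Atp6v0a2 was highest on average in cDC1.

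Mast cells, tested against macrophages in replicates 2 and 3, had lower levels of 7 cathepsins, a level of Ctsd that overlapped that of macrophages, and UMIs of Ctsg, a serine protease of secretory granules (chr14:56099881-56102574, minus strand). The cathepsin sum was 1232 and 1441 CPM in mast cells and 7570 and 8324 CPM in macrophages, and the pump sum was 2412 and 1867 CPM against 2767 and 2342 CPM. Of 29 members tested, 1 was called higher and 8 lower, where 2.59% of all 9900 genes were called higher and 6.67% lower. Among cathepsins 7 of 11 were lower (median -3.13), and among pump genes 1 of 18 (median -0.78), beside a median of -0.68 over all genes. The mast cell profiles held 56797 and 72847 UMIs, against 7234611 and 6214363 in macrophages. Genes with 0 mast cell UMIs, such as Slc9a9 at -10.9, enter the median over all genes. Their part in it was not tested, so it is not a shift that applies to each member.

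Ctsg had 7, 14 and 27 UMIs in mast cells of replicates 1, 2 and 3 (177, 247 and 371 CPM) and 0 UMIs in every other class plotted. Against a floor of 3 counts in macrophages, it was at least 1418-fold higher in the tested libraries (adjusted p 1.7e-30 by edgeR). Ctsd had 387 and 604 CPM in mast cells and 563 and 578 CPM in macrophages (log2 fold change -0.33, SE 0.40, adjusted p 0.77). Ctsb had 194 and 68.6 CPM in mast cells and 3119 and 3126 CPM in macrophages (log2 fold change -4.79, SE 0.63, adjusted p 2.3e-12), and Ctss, with 2 UMIs in each library, had a log2 fold change of -5.61. Ctsc, which activates mast cell granule proteases, had 194 and 68.6 CPM in mast cells as well, against 1054 and 1285 CPM (log2 fold change -3.35).

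Of the pump genes, the one called was Atp6v1b2, which had 1 UMI in each tested library (log2 fold change -3.31, adjusted p 0.00043 by edgeR) but 6 UMIs in the 8 mast cells of replicate 1. Its call was lost under DESeq2 (adjusted p 0.114) and with thinned cells (adjusted p 0.0571), within a range of 0.00034 to 0.114 over the alternatives. That of Ctsl was lost under DESeq2 (adjusted p 0.246) and without replicate 3 (adjusted p 0.392), within 5.6e-05 to 0.392, and the other 7 calls were kept in every alternative run. Atp6v0b had 370 and 384 CPM in mast cells and 389 and 359 CPM in macrophages. Atp6v0e had 792 and 343 CPM against 241 CPM in both macrophage libraries (log2 fold change 1.02, SE 0.37, adjusted p 0.056), and library-size scaling and the joint fit of all classes called 2 members higher. Serpinb1a, an inhibitor of granule serine proteases, had 2258 CPM in mast cells and 8.64 CPM in macrophages on average (log2 fold change 7.90). Of 30 hydrolases and cofactors, 13 were called lower and 0 higher (median -1.99). Mast cells of replicate 2 carried macrophage markers at 775 CPM, against 0 and 96.1 CPM in replicates 1 and 3.

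Fibroblasts entered no test, and their values are given as levels. Ctsl (chr13:64359337-64370890, minus strand) had 820, 1088 and 1514 CPM in fibroblasts, above its 259, 206 and 232 CPM in macrophages in each library. Ctsk, the collagen-cutting cathepsin of osteoclasts (chr3:95499256-95509362, plus strand, the neighbour of Ctss), had 127, 58.8 and 63.1 CPM in fibroblasts and 3.06, 1.52 and 1.77 CPM in macrophages. Ctss ran the other way, with 21.7, 0 and 9.01 CPM in fibroblasts. The pump isoforms Atp6v0e2 and Atp6v0a4 had their highest means there too. Atp6v0e2 had 35.8, 29.4 and 36.0 CPM, and Atp6v0a4, known from the kidney, had 24, 0 and 2 UMIs. Replicate 1 gave 45 of these cells, while replicates 2 and 3 gave 9 and 12.

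Within macrophages, cells also varied among themselves. The cathepsin sum of a single cell ran from 4771 CPM at the 10th percentile to 16125 CPM at the 90th in replicate 1, from 4050 to 11850 CPM in replicate 2 and from 4336 to 13557 CPM in replicate 3. The median pump sum of a cell was 2467, 2828 and 2259 CPM. Across the cells of a library, Spearman's rho between the 2 sums was 0.56, 0.23 and 0.41, a description only, since cells share a library and both sums share a cell's depth.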

How the data were processed

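The deposited tables hold UMI counts per gene and cell barcode for 3 droplet libraries, which the authors made with Cell Ranger 3.1 on build mm10, as the submitters' processing notes state. Replicate 1 carries version 3.0.0 and the other replicates version 3.1.0, per the file headers.

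Cells with at least 1000 UMIs and at most 15% mitochondrial UMIs were kept. Each was placed in the class with the highest share of its markers detected, with at least 5 marker genes for macrophages and 3 for other classes, and ties were left out; this rule was set after marker counts had been seen. Macrophages with 1 TLF UMI were left out of that split. No doublets were removed in the reported fits, and scrublet marked 6, 64 and 32 cells, which were removed as an alternative. UMIs were summed per library and class (at least 10 cells) and tested with edgeR 4.0.16 in R 4.3.3 (filterByExpr, TMM scaling, quasi-likelihood test, Benjamini-Hochberg adjustment), with the library as a block because each library gives both classes of a comparison. The minimum of 5 cells for NK and migratory dendritic cells was chosen after seeing the data. DESeq2 1.42.0 was an alternative. Intervals and floors of 3 counts cover counting error only.

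A member was described by name at a mean of 50 CPM or more in some class or when called, and other genes were named as the largest called changes of 6 lists: cathepsin inhibitors, processing and pump partners, lysosomal hydrolases and cofactors, lysosomal membrane and sorting, MiT/TFE factors, and antigen-loading partners. The members, the lists and the comparisons were chosen with earlier results of these data known. Steps were tested on simulated data.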

Additional observations from a re-analysis of the deposited data

How the results depend on the processing

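Of 875 values of called members under the alternatives run, 738 kept their call, 137 lost it and 0 reversed direction. Members that were not called are not covered by this count. Some kept calls were fixed in advance, because the alternative left the profiles of a comparison unchanged. Such runs included monocytes without replicate 3 (9 cells), and cDC1, mast and NK cells without replicate 1 (7, 8 and 2 cells). Minimums of 5 and 20 cells likewise left the comparisons of TLF macrophages and of cDC2 against macrophages unchanged. Ranges over left-out replicates below include such runs. The minimum of 5 cells, the removal of shared barcodes and the joint fit that replaces a leave-one-out fit with 1 library in a class were chosen after seeing the data. TLF macrophages had 11 members higher and 3 lower, which became 3 and 0 without the replicate block, 5 and 1 with thinned cells, 1 lower with library-size scaling and 0 lower in the joint fit of all classes; leaving out each replicate gave 3 to 12 higher and 0 to 4 lower. Ccr2 macrophages (0 higher, 1 lower) had 1 higher and 2 lower with no filter on low counts, 1 higher in the joint fit, 0 lower with DESeq2, without the block and with thinned cells, 2 lower with at least 20 cells, and 0 to 2 lower when a replicate was left out. Macrophages against monocytes (8 higher, 0 lower) had 2 higher with DESeq2, 1 without the block, 3 at 2000 UMIs, 2 with thinned cells, 1 lower at 500 UMIs, and 2 to 8 higher when a replicate was left out, with 4 without replicate 1 and 2 without replicate 2. For cDC2 (2 higher), 1 was higher with library-size scaling, 0 without the block, 1 with thinned cells and 1 to 2 when a replicate was left out. For cDC1 (1 higher, 8 lower), DESeq2 gave 0 and 4, the fit without the block 4 lower, the stricter gate 2 higher, scrublet removal 4 lower, thinning 0 and 2, and leaving out a replicate 0 to 1 and 2 to 8. Migratory cells had 1 lower with no filter. For NK cells (2 higher), DESeq2, the joint fit and thinning gave 1 and leaving out a replicate 1 to 2. For mast cells (1 higher), library-size scaling and the joint fit gave 2. Thinning came after gating and gave each cell the same weight, whereas the reported sums weight each cell by its UMIs. The mean macrophage sums after thinning were 8821 CPM for cathepsins and 2748 CPM for the pump, against 8100 and 2524 CPM. The cause of these changes was not tested. A stricter gate and 20 cells left no fit for monocytes, nor did 2000 UMIs and 20 cells for mast cells. Profiles of 5 to 28 cells limit what could be detected in monocytes, cDC1, mast, NK and migratory cells.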
